A study of Homo sapiens with 6 samples.

Results

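The clustered protocadherin genes are the protein-coding genes of human chromosome 5 whose symbols begin with PCDHA, PCDHB or PCDHG in the RefSeq gene table of GRCh38.p14 (hg38). That rule gave 53 genes of 19974 protein-coding genes on chromosomes 1 to 22 and X: 15 in the alpha cluster, 16 in the beta cluster and 22 in the gamma cluster. All of them lie in 1 stretch of chromosome 5, in the order alpha, beta, gamma. A gene was counted where an open-chromatin region touched the 1 kb on either side of the end that holds its first exon, here called its start. The far end was not used for the count, because all alpha genes share theirs and so do all gamma genes. Of the 53 genes, 29 had a region at the start in both peak lists, 6 in 1 list and 18 in neither.

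The assay was ATAC-seq, which reads out accessible chromatin from the places where Tn5, a transposase loaded with adapters, can cut into the DNA of nuclei. The cells were wild-type (WT) hTERT-RPE1, an established human cell line from retinal pigment epithelium, kept dividing by telomerase, with no treatment named in the labels. The 6 libraries fall by title into the sets R1 and R2, 3 in each, and the labels state neither what separates the sets nor whether the libraries came from separate cultures. For each set a list of peaks from the merged libraries was analysed, so no spread between replicates and no test between samples was possible. A region below is a peak of a list, and a shared region is an R1 peak and an R2 peak that overlap, joined.

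Protocadherins are cell surface proteins of the cadherin family, best known from neurons, where combinations of alpha, beta and gamma isoforms on a cell bind the same combination on another cell and let a neuron tell its own branches from those of its neighbours. Each alpha or gamma gene has a variable first exon with a promoter of its own, spliced to constant exons at the far end of the cluster, while a beta gene is a single exon. In neurons a cell picks few of these promoters. Most of the promoters hold a short conserved element with the letters CGCT at its core, at or near a site for CTCF. CTCF is a DNA-binding protein that folds chromatin into loops with the cohesin ring.

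The elements around CGCT are shown first, because related genes with and without a region can be compared letter by letter. Each line gives 14 bases before the box, the box in capitals and 8 bases after it, on the gene's strand (the + strand), 5′ to 3′, from RefSeq promoter sequences of GRCh38.p14. PCDHA4, PCDHA6, PCDHB5, PCDHB8, PCDHB13, PCDHB14, PCDHGA7, PCDHGB5, PCDHGA9 and PCDHGC3 had a region in both lists, PCDHB1 and PCDHGB4 in R1 alone, and PCDHA2, PCDHA8, PCDHGA10 and PCDHGC4 in neither.
PCDHA4: gagccacatgatgtCGCTctttacca
PCDHA6: gagccgcatgatgtCGCTgtctacca
PCDHA2: tagccacatgatgtCGCTgtccacca
PCDHA8: aagccacatgatgtCGCTgtctacca
PCDHB5: aggacgcctggtggCGCTgcaggcta
PCDHB8: aggacccgtggtggCGCTgcaggata
PCDHB13: aggacgcgtggtggCGCTgcaggata
PCDHB14: gagacacatggtggCGCTacaggata
PCDHB1: ctggggagttgagtCGCTcaatgcaa
PCDHGA7: aggactcacagcgcCGCTgttcacca
PCDHGA9: aggactctgagcgcCGCTgttgatca
PCDHGA10: aggactctgagcgcCGCTgttcacct
PCDHGB5: ctgactctgggcgcCGCTgttggcca
PCDHGB4: ctgactctgggcgcCGCTgttggcca
PCDHGC3: gggactctgtgtgcCGCTgtcggcca
PCDHGC4: ctgagcccgggagcCGCTgtctgcca

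Elements of a cluster resembled each other more than those of other clusters. Over all pairs of genes, the median share of identical bases was 73.1% among alpha genes, 76.9% among beta genes and 73.1% among gamma genes, against 53.8% for each pairing of clusters. Where a promoter held several copies of CGCT, the copy most like those of its own cluster was taken, which favours likeness within a cluster. Closely related elements occurred in genes of the same and of different states, as 4 of the pairs shown illustrate; they were picked after their states were seen. PCDHB8 and PCDHB13 matched at 25 of 26 bases, and both had regions in both lists. PCDHGB4 and PCDHGB5 had the same 26 bases, yet PCDHGB5 had a region in both lists and PCDHGB4 in R1 alone. PCDHA6 and PCDHA8 matched at 24 of 26 bases, and PCDHGA9 and PCDHGA10 at 23 of 26, and in each pair the former had a region in both lists and the latter in neither. Averaged over the other genes of its cluster, an alpha element was identical at a median of 71.0% of bases for genes in both lists and 70.8% for genes in neither. For gamma these medians were 71.4% and 72.0%, and no beta gene was in neither list.

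The share of open starts was not the same in the 3 clusters. A start is called open here where both lists have a region at it, and a start without a region is one at which no peak was called. Regions in both lists marked 13 of 16 beta genes (81.2%), 11 of 22 gamma genes (50%) and 5 of 15 alpha genes (33.3%). Over the 53 genes the share was 54.7%, and over the 15818 protein-coding genes tested it was 71.4%. Tested were genes with a strand in the RefSeq promoter table, and all members. PCDHA3, PCDHA13, PCDHB6, PCDHB11, PCDHGA12 and PCDHGC5 are not in that table and were taken on the + strand. Other genes missing from it were left out. Of the 47 members in it, 26 were open (55.3%). Genes with a region in neither list made up 9 of the alpha genes, 0 of the beta genes and 9 of the gamma genes, against 26.0% of all genes tested. The differences between clusters are counts of genes in pooled lists and carry no test.

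**Figure D1:**
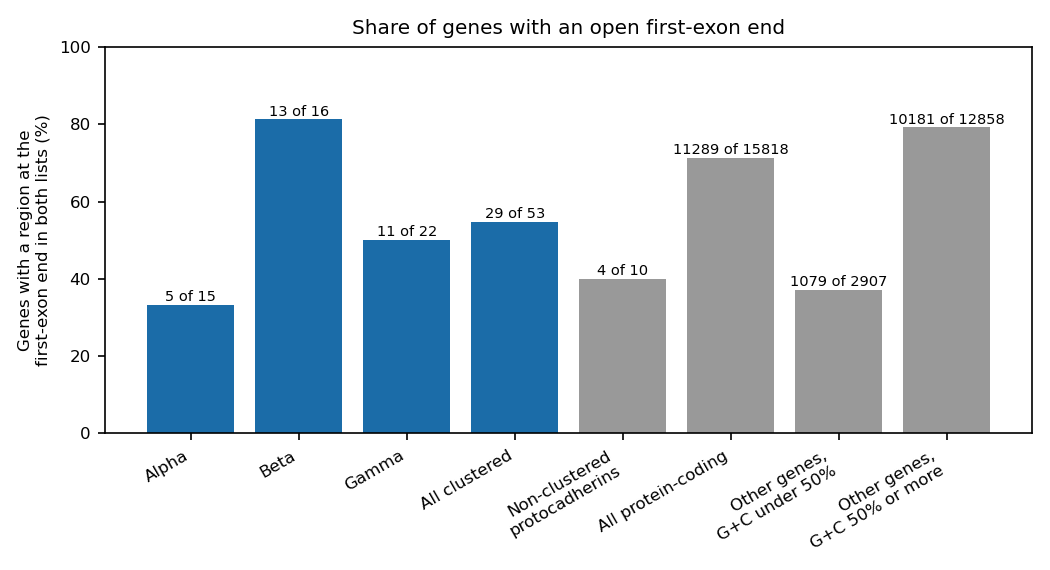
Share of genes (percent) with a region at the first-exon end in both lists, with the count on each bar, for the clusters (blue) and for non-clustered protocadherins, all protein-coding genes and other genes by promoter G+C content (grey). Beta (13 of 16) is the only cluster above the share of all protein-coding genes (11289 of 15818).

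Within the alpha cluster the genes numbered PCDHA1 to PCDHA13 are the alternate isoforms, and PCDHAC1 and PCDHAC2 are the C types, which neurons are known to use more uniformly. Of the 13 alternate genes 5 had a region in both lists. The value given for each is the fold enrichment at the summit of the peak over the local background, which is the authors' own number for that peak. The 2 values of a gene come from separate lists and are not compared in strength.

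PCDHA4 had folds of 8.62 in R1 and 8.07 in R2. At PCDHA5 the folds were 3.92 and 3.98, and at PCDHA6 they were 11.8 and 12.8. These 3 genes are neighbours, and the middle one lay lowest in both lists. PCDHA7, next in order, had folds of 6.94 and 8.42. PCDHA12 stood alone with 4.81 and 6.48, and its region also touches an end of the long non-coding gene LOC112267934. PCDHA6 was above 95.5% of all R1 peaks and 98.3% of all R2 peaks by fold, while PCDHA5 was above 37% and 36.5%. PCDHA4 to PCDHA7 thus formed a run of 4 neighbours, between PCDHA1, PCDHA2 and PCDHA3 on the side of the vault RNA genes and PCDHA8, PCDHA9, PCDHA10 and PCDHA11 on the other, none of which had a region in either list. PCDHA13 and PCDHAC1 had none either. PCDHAC2 had a narrow R2 peak of 383 bp with a fold of 2.62 and no R1 peak.

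The beta genes encode isoforms without the constant part of the alpha and gamma proteins. R1 regions marked 16 of 16, against 72.9% of all genes tested, and R2 regions 13 of 16, against 72.5%. The 12 neighbours from PCDHB5 to PCDHB15, with PCDHB16 lying between PCDHB8 and PCDHB9 in genome order, were open in both lists without a gap, which was the longest run of the locus.

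PCDHB14 had folds of 14.2 in R1, the highest of the run in that list, and 11.7 in R2. PCDHB5 had 12.7 and 12.4, the latter the highest of the run in R2. PCDHB13 had 11.0 and 9.07. These 3 starts lay above 93.2% of R1 peaks and 84.1% of R2 peaks or higher. PCDHB10 had 7.38 and 10.2. PCDHB12 had 7.05 and 8.42, and PCDHB9 had 6.40 and 6.46. All 3 had folds above the median of their list, which was 5.04 in R1 and 5.12 in R2. PCDHB8 had folds of 5.97 and 5.62. PCDHB16 had 5.78 and 5.59, and PCDHB11 had 5.26 and 5.46. That group lay between the 52.4 and 59.3 percentiles of R1 and the 53.7 and 55.6 percentiles of R2. PCDHB6 had folds of 4.48 and 5.80, on either side of the median. PCDHB15 had 3.69 and 3.30, and PCDHB7 had 3.14 and 3.18. Of the 29 open starts these last had the lowest folds in both lists.

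Ahead of the run, PCDHB2 had folds of 9.41 and 9.10 in R1 and R2. The genes around it had R1 peaks alone: PCDHB1 with a fold of 3.47, PCDHB3 with 3.02 and PCDHB4 with 2.80. All 3 peaks sat on the lowest background of the R1 list, with 30, 26 and 24 fragments over the summit. A peak could be called there from 17 fragments, as the lowest number found at that background in either list.

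The gamma genes are of A type and B type, interleaved along the cluster, with 3 C types at the far end. Regions in both lists marked 5 of 12 A-type genes, 4 of 7 B-type genes and 2 of 3 C-type genes, so neither of the interleaved types had all or none of its starts open. Going along the 22 genes, the state changed 14 times between a region in both lists and any other state, against 4 changes in alpha and 3 in beta. The clusters also differ in the number of genes and the share of open starts, which bear on such counts. The difference was not tested.

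Among the A types, PCDHGA7 was highest (folds of 12.5 in R1, 14.4 in R2). PCDHGA9 had 11.0 and 11.1. PCDHGA1, the first gene of the cluster, had 10.6 and 9.65. Each of these had at least 163 fragments over the summit in both lists. PCDHGA11 had folds of 9.08 and 9.97. PCDHGA2 had 7.39 and 4.43, with 65 and 38 fragments over the summit. Of the 5 open A-type starts it had the fewest fragments in both lists. PCDHGA6 had an R1 peak alone, with a fold of 3.47 from 30 fragments, the same values as PCDHB1. PCDHGA3, PCDHGA4, PCDHGA5, PCDHGA8, PCDHGA10 and PCDHGA12 had no region.

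Of the B types, PCDHGB1 had the highest folds, 12.6 in R1 and 11.8 in R2. PCDHGB7 had 7.92 and 7.34, and PCDHGB5 had 7.66 and 6.49. PCDHGB2 was lowest with 4.37 and 4.09. PCDHGB1 was above 96.5% of the peaks of each list by fold and PCDHGB2 below the median of each. PCDHGB4 had an R1 peak alone, with a fold of 2.91 from 25 fragments. PCDHGB3 and PCDHGB6 had none. Among the C types, PCDHGC3 had folds of 9.11 and 10.03, and PCDHGC5 had 8.19 and 7.46. PCDHGC4 lies between them in gene order and had no region in either list. PCDHGC4 is known from mice as the isoform that neurons need to survive, and its start had no peak here while those of both neighbours were open.

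**Figure D2:**
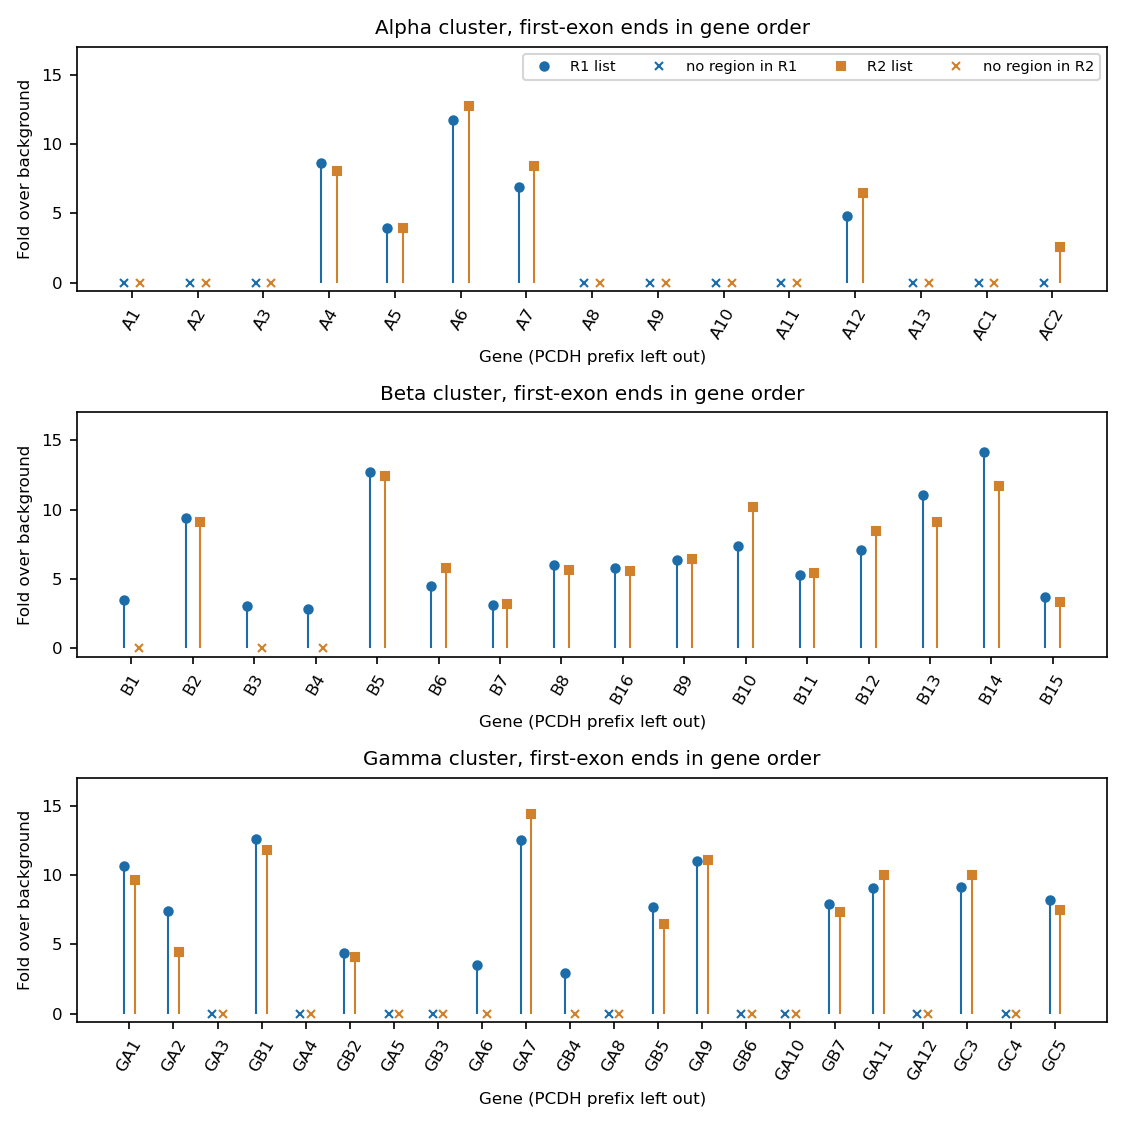
Fold over background at the first-exon end of each of the 53 genes in gene order, with R1 as circles and R2 as squares, and a cross at 0 where a list had no region. The longest run of genes with both symbols reaches from PCDHB5 to PCDHB15, while in gamma such genes stand alone or in pairs.

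The ranks of the genes were much alike in the lists. Of the 10 members with the highest fold in R1, 8 were among the 10 highest in R2, and Spearman's rho over the 29 genes was 0.90. It is given as a description without p, since both lists come from the same cell line. The 6 regions found in 1 list lay at the low end, with folds of 2.62 to 3.47, none above the 30.5 percentile of its list.

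At open starts the median fold was close to that of other genes, while the median number of fragments was far lower. The median fold of the 29 genes was 7.66 in R1 and 8.07 in R2, against 7.44 and 7.51 over all tested genes with a region in both lists. Over the summit lay a median of 84 (R1) and 87 (R2) fragments, against 307 and 320. The local background beneath them was likewise lower, with medians of 8.22 and 9.01 fragments against 37.8 and 38.9. For many of these genes the fold is thus a ratio of small numbers. PCDHGC3 and PCDHGA11 were exceptions, with fragments above the medians of all genes in both lists. Of the open alpha starts, 5 of 5 in R1 and 4 of 5 in R2 sat on the lowest background of the list, 7.93 and 7.79 fragments. So did 6 and 7 of the 13 beta starts, and 2 and 2 of the 11 gamma starts.

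Fragment numbers reached highest in gamma. Open alpha starts had 34 to 104 fragments over the summit in R1 and 34 to 121 in R2. Beta starts had 27 to 129 and 27 to 123. Gamma starts reached from 38 to 346 and from 35 to 378, so the clusters overlapped at the low end and gamma alone went above 129 fragments. The most fragments were at PCDHGC3 with 346 and 378, PCDHGA11 with 320 and 349, and PCDHGB7 with 278 and 262. These starts also had the highest backgrounds of all open members, from 34.1 to 37.1 fragments. Their folds were therefore below those of PCDHGA7, which had 163 and 188 fragments over a background of 12.1 in each list. Whether the higher background has a part in the higher pileup was not tested.

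The open regions at these starts were narrow and lay mostly inside the gene. Median widths were 878 bp for R1 and 891 bp for R2, against 1420 and 1500 bp for the regions at the starts of other genes. The median region reached 145 bp before the start in R1 and 136 bp in R2, against 591 and 597 bp for other genes. Into the gene it reached 669 and 679 bp, against 806 and 853 bp. The difference thus lay mainly on the side before the start. PCDHGC5 and PCDHGC3 reached farthest before their starts, as the plot of region extents shows.

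**Figure D3:**
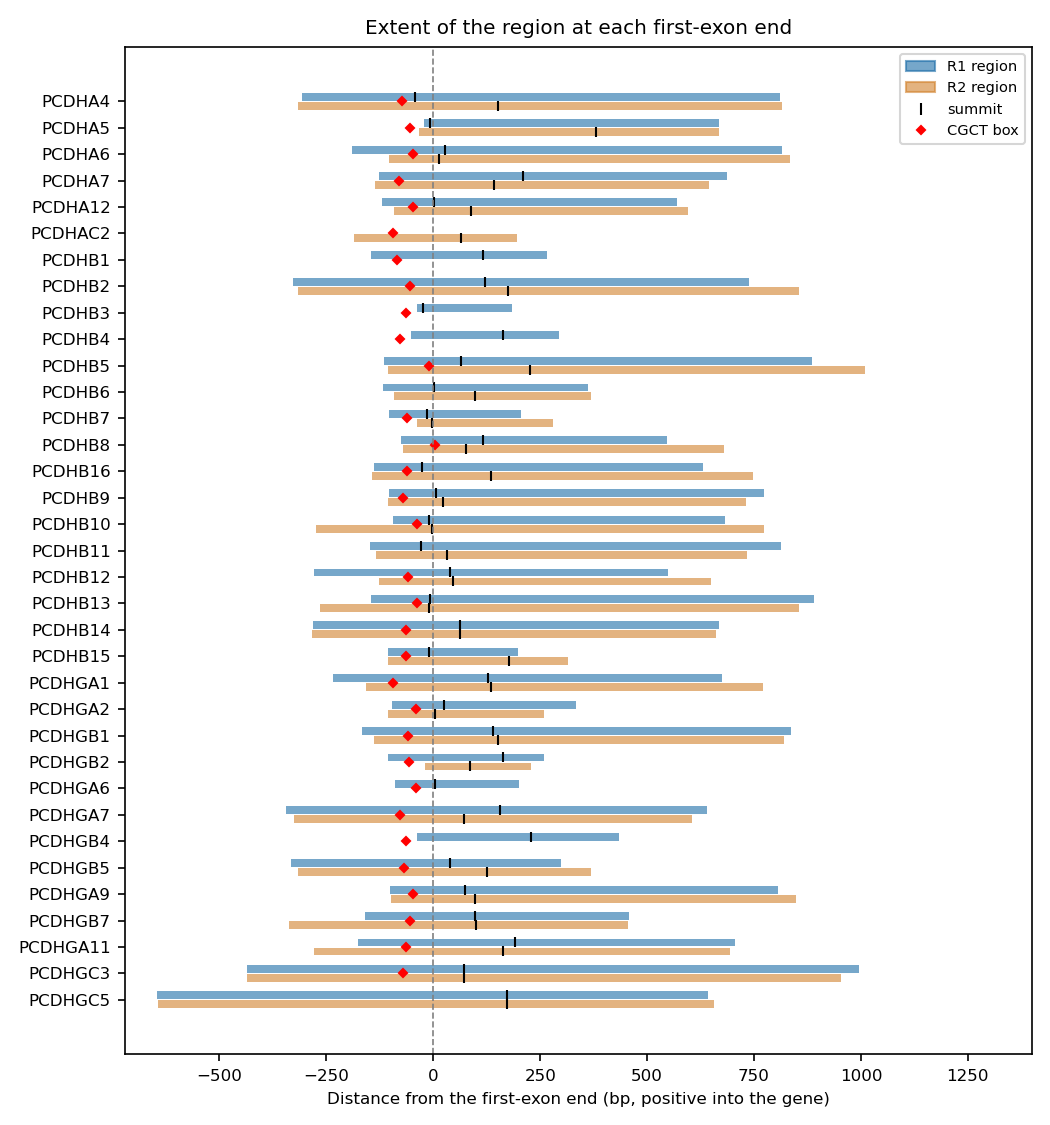
Extent of each region around the start of its gene in bp (positive into the gene), R1 above R2, with the summit as a tick and the CGCT box of the element as a diamond where the gene had one. Most regions reach farther into the gene than before the start, and the summit lies past the box wherever both are drawn.

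Weak regions are narrower in general, so the genes were also set beside other genes under the same limit of fragments. Among regions with no more fragments than the members' median (84 for R1, 87 for R2), the 15 members had median widths of 692 and 752 bp. The 1141 and 1113 other genes under the same limit had 662 and 689 bp. Under this limit the members were not narrower than the rest. The groups were not alike in fold, with medians of 5.97 (R1) and 5.62 (R2) for members against 3.58 and 3.73. The members still reached less far before the start, 106 and 105 bp against 282 and 270 bp. Above the limit the 14 remaining members had median widths of 970 and 955 bp, against 1473 and 1556 bp for other genes, which as a group have far more fragments.

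Summits kept close to the start. In R1 the summit of all 29 regions lay from 100 bp before to 300 bp after the start, and in R2 that of 28 did (96.6%). Among other genes with a region in both lists, 42.9% in R1 and 47.9% in R2 had the summit in this band. The other genes with no more fragments than the members' median, whose folds were lower than those of such members, had 32.3% and 35.7%. The member outside the band was PCDHA5 in R2, with its summit 380 bp past the start, against 8 bp before it in R1. Over the members the median summit lay 38 bp past the start in R1 and 98 bp past it in R2. For every gene the start was the outer end of the gene in RefSeq. Where several regions of a list touched the window the strongest was taken, a case that no open member presented. The part of these choices in the spread of other genes was not tested.

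**Figure D4:**
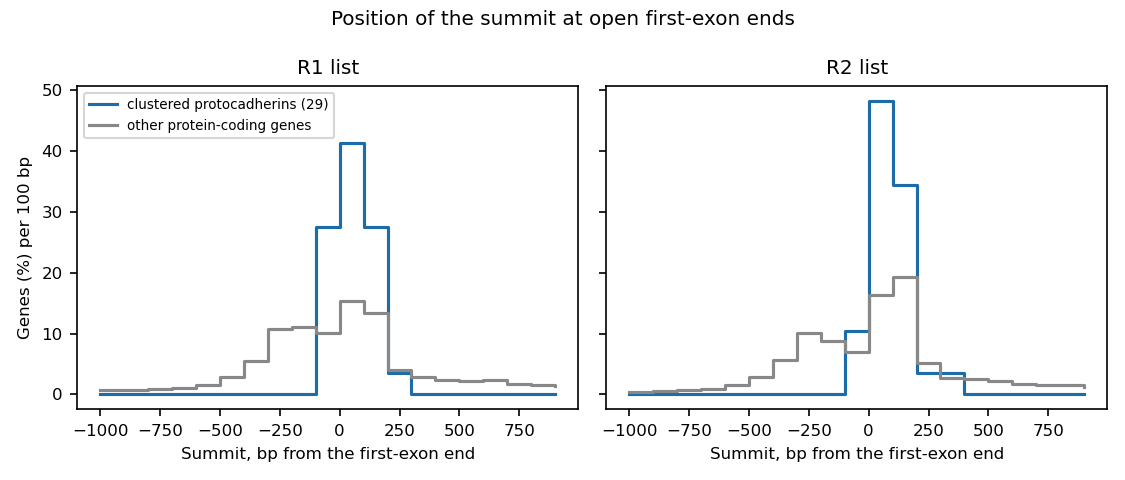
Position of the summit relative to the first-exon end (bp, positive into the gene), as the percent of genes in each bin of 100 bp, for the 29 open members (blue) and other protein-coding genes with a region in both lists (grey), in R1 and R2. The members lie between 100 bp before and 300 bp after the start, except PCDHA5 in R2, while other genes spread to either side.

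At open starts the box lay before the summit. A CGCT within the 100 bases before the start, on the gene's strand, was found for 44 of the 47 members in the promoter table, and in 34.31% of all 15812 promoters of the same length. Over the full 300 bases (250 before the start and 50 after) and both strands it was in 46 of 47, and in 80.20% of all promoters. PCDHA9 was the member without it. Longer words around the box were rarer elsewhere. GATGTCGCT, on the gene's strand of the 300 bases, was in 9 of 13 alpha promoters and 0.11% of all promoters. GGTGGCGCT was in 13 of 14 beta promoters and 0.40% of all, and GCCGCTGT in 11 of 20 gamma promoters and 1.06% of all. These words were chosen after reading the elements, overlap the box and are a description of the letters alone. The core of the CTCF motif was searched on both strands by its conserved bases CC, AG and GGC at fixed spacing. These exact letters were found in 1 member, PCDHB9, and in 12.69% of all promoters. In PCDHB9 they lie within the element and run into its box. TATAAA on both strands was in 6 of 47 members and 9.92% of all promoters. A missing match says only that these exact letters are absent from the window, and whether CTCF binds at these promoters was not tested.

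Of the 47 promoters, 46 held a CGCT on the gene's strand, which with the bases around it was taken as the element. No limit of likeness was set. Its box lay a median of 58 bp before the start, from 95 bp before it to 3 bp past it at PCDHB8. Of the 26 open members with an element, the summit lay past the box, towards the gene, in 26 in R1 and in 26 in R2. The distance from box to summit had a median of 102 bp in R1, from 27 to 291 bp, and of 148 bp in R2, from 29 to 435 bp. The box was inside the region in 25 of 26 in R1 and 23 of 26 in R2. The element of PCDHGB7 was the one least like its cluster, with a mean of 34.0% identical bases. Those of PCDHAC1, PCDHB1 and PCDHAC2 were also unlike their clusters, with 43.4%, 44.4% and 52.1%. All of these lay below 53.8%, the median for pairs of genes from different clusters. Whether these boxes belong to the conserved element was not tested.

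The promoters were poor in G and C. The 47 promoters had a median G+C content of 39.7% and 7 CG dinucleotides in 300 bases, against 62.7% and 22 over all promoters. Promoters of other genes with less than 50% G+C had a region in both lists in 1079 of 2907 genes (37.1%), and those with 50% or more in 10181 of 12858 (79.2%). Members with less than 50% had one in 24 of 41 (58.5%), and members with 50% or more in 2 of 6 (33.3%). These groups were not alike in CG content: below 50% G+C, members had a median of 7 CG and other genes 3, with observed over expected CG of 0.59 and 0.22. The difference in shares was not tested. For a gene with several promoters the G+C is that of the promoter with the lowest coordinate. Regions were counted at the outer end of the gene, which can be another promoter. Within the family, median G+C was 36% for alpha genes in both lists and 37.3% for the other alpha genes. It was 39.7% and 43.0% in beta and 45.8% and 39.2% in gamma, so the order was not the same in the clusters. PCDHA3, PCDHA13, PCDHB6, PCDHB11, PCDHGA12 and PCDHGC5 were not matched in the promoter table.

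The range of composition is seen in the 250 bases before the start of PCDHB14 and of PCDHAC1. Each CG is in capitals, and the letters are from RefSeq (GRCh38.p14, + strand). The pair was picked with its states known and does not show how composition and state go together. Over the family, median G+C was 40.7% for members in both lists and 38.3% for members in neither. PCDHB14, at chr5:141223093-141223342, had 33.6% G+C and 7 CG, with folds among the highest of the family. PCDHAC1, at chr5:140926049-140926298, had 63.2% G+C and 18 CG, and no region in either list.
PCDHB14: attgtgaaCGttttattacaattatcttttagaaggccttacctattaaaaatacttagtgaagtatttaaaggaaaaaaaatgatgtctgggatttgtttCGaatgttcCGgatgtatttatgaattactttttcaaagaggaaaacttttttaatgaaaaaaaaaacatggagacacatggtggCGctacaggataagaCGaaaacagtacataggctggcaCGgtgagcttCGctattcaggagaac
PCDHAC1: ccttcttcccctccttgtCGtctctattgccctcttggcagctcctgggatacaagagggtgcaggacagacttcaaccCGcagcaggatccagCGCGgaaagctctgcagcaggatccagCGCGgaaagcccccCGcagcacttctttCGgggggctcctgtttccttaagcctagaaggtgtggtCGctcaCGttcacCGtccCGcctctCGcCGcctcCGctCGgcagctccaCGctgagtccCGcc

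Within the clusters, most shared regions lay at the starts of genes. Each span ran from 1 kb before the first start of the cluster to its last gene end, and held the regions with their midpoint in it. The alpha cluster (chr5:140785140-141012347) held 6 shared regions, 5 of them at starts of members. The beta cluster (chr5:141050374-141249365) held 15, with 13 at starts, and the gamma cluster (chr5:141329514-141512975) held 13, with 11 at starts. The shares at starts of tested protein-coding genes were 83.3%, 86.7% and 84.6%. On chromosome 5 it was 8.0% of shared regions, and on chromosomes 1 to 22 and X 8.8%. Tested were 15818 of 19974 protein-coding genes, with all members among them, which can lower the shares outside the clusters. In the 100 kb before alpha 2 of 5 shared regions lay at such starts, and in the 100 kb after gamma 0 of 11. Starts are also closely spaced here, with a median of 7056 bp between neighbours in alpha, 9092 bp in beta and 4973 bp in gamma. The density of shared regions was 2.64 per 100 kb in alpha, 7.54 in beta and 7.09 in gamma, against 3.77 on chromosome 5 and 4.16 overall.

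Away from the starts there were few regions. The strongest of them was in the beta cluster, at chr5:141084273-141085488 between PCDHB1 and PCDHB2, 9.73 kb from the start of PCDHB2 and at no gene end of the table. Its folds were 14.4 in R1 and 13.9 in R2, above 99.4% of the peaks in each list. No region at a member's start was higher in both lists. Another region of the beta cluster, at chr5:141234249-141235230, lay at an end of the pseudogene PCDHB18P, with folds of 4.81 and 5.91. That pseudogene sits between PCDHB14 and PCDHB15, so the open run of beta starts held it too, and the region at PCDHB15 also touches an end of the pseudogene PCDHB19P.

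In the alpha cluster a weak region at chr5:141003988-141004465, 37.8 kb past the start of PCDHAC2, had folds of 2.35 and 2.84. No region lay at the shared far end of the alpha genes. Between alpha and beta there was 1 shared region, at chr5:141041031-141041427, 10.1 kb before PCDHB1, with folds of 7.28 and 5.80. Enhancers of the alpha promoters are known from the stretch at the far end of that cluster, but their positions were not used here and no region was matched to them.

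Between beta and gamma lay 2 shared regions. The start of TAF7, which encodes a subunit of the general transcription factor TFIID, had folds of 11.8 and 11.7 at chr5:141319939-141321340. The other, at chr5:141325948-141326650, 4.22 kb before PCDHGA1, had 5.55 and 6.22. Past the last gamma start were regions at chr5:141493858-141494344 with folds of 3.45 and 3.397 and at chr5:141507563-141509659 with 4.78 and 4.63. The latter was 2097 bp wide. The far end of the gamma genes lay in a region at chr5:141512670-141515028 with folds of 4.86 and 4.43, which also holds an end of DIAPH1.

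**Figure D5:**
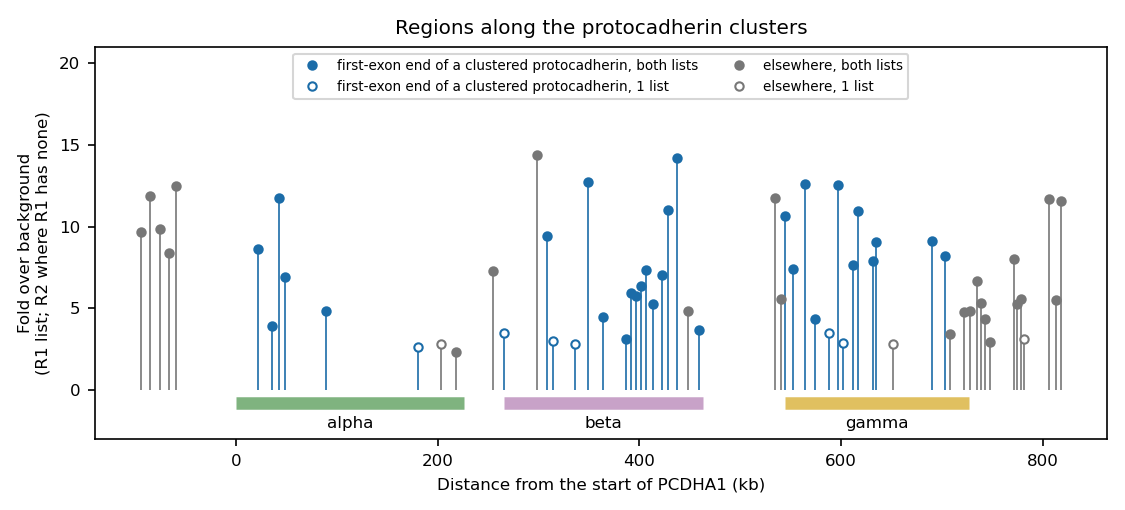
Regions from 100 kb before the alpha cluster to 100 kb after the gamma cluster, by distance from the start of PCDHA1 (kb), with the fold of R1, or of R2 where R1 had none, as the height. Blue marks first-exon ends of members, grey other regions, and open circles regions in 1 list; the alpha cluster past PCDHA12 holds 3 weak regions, with folds of 2.35 to 2.80.

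The genes on either side are of other families. The 100 kb before alpha held 5 shared regions, among them the vault RNA genes VTRNA1-1 (folds of 9.84 and 10.6), VTRNA1-2 (8.36 and 8.17) and VTRNA1-3 (12.5 and 12.3). HARS1 and HARS2, histidyl-tRNA synthetases that share a region, had 9.65 and 9.38, and ZMAT2 had 11.9 and 11.96. Beyond the 100 kb after gamma, DIAPH1, a formin that builds actin filaments, had 7.90 and 7.48 at its start, and the neighbours HDAC3 and RELL2 shared a region with 7.52 and 7.84. Of the flanking and intervening genes, 7 of the 7 tested had a region in both lists, against 71.4% of all genes tested. SLC25A2, which lies between beta and gamma, was not tested because its strand was not matched.

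Protocadherin genes outside the clusters encode related adhesion proteins and lie scattered over the genome. Of 10 tested, 4 had a region in both lists: PCDH18 (folds of 8.21 and 7.86), PCDH1 (7.37 and 7.33), PCDH9 (6.56 and 6.31) and PCDH7 (3.203 and 2.91). The other 6, among them PCDH11X, PCDH12 and PCDH15, had none in either list. Among known regulators of the clusters, 13 of 13 tested had one. SETDB1, a histone H3 lysine 9 methyltransferase, had 8.66 and 9.31, and the cohesin subunits SMC3 and SMC1A had 8.46 and 8.24 and 7.23 and 7.49. SMCHD1, a silencing protein that acts on these clusters, had 7.71 and 7.36. All 7 tested partners and processing enzymes of the proteins had a region too, led by the WAVE complex genes CYFIP2 (10.1 and 8.36), NCKAP1 (9.86 and 7.60), WASF1 (8.54 and 7.94) and ABI2 (8.47 and 6.77). These lists are small and 71.4% of all genes had such a region.

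The label of the cells was checked at the starts of marker genes. Of 8 tested markers of retinal pigment epithelium, RLBP1, MITF, OTX2 and MERTK had a region in both lists, and 4 had none in either, among them LRAT, RPE65 and STRA6. That is 4 of 8, against 71.4% of all genes tested. KRT8, a keratin of simple epithelia whose gene overlaps that of KRT18, had one. KRT18 was not tested, and whether the region belongs to KRT8 or to KRT18 was not tested either. The 4 tested neuronal genes RBFOX3, SYT1, TUBB3 and MAP2 also had a region in both lists, and PTPRC of blood cells had none. A region at a start is no measure of transcription, and no RNA was measured.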

How the data were processed

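ATAC-seq libraries were made from nuclei of wild-type hTERT-RPE1 cells by tagmentation with Tn5, PCR and size selection, per the labels' protocols. The deposited data used here are 2 lists of peaks (R1 and R2), each from 3 merged libraries by its name, on hg38 per the submitters' processing notes. The sources used here name no aligner, peak caller or setting, and no shift for the Tn5 insertion site. For each peak the authors deposited a fold enrichment (a ratio), a −log10 p-value, a −log10 q-value and how far the summit lies from the peak's start.

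The lists held 142865 and 134351 peaks on chromosomes 1 to 22 and X. Library depths were not used here. The fragments at a summit (its pileup) and the background were worked out from the deposited values, with the fold read as (pileup + 1)/(background + 1) and p as the Poisson probability of a higher pileup. A whole number gave the deposited −log10 p within 0.001 for 100.0% of peaks in each list. This relation is inferred from the values.

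Genes came from the RefSeq table of GRCh38.p14 and strand from the RefSeq promoter table. Members missing from the promoter table were kept on the + strand, while other genes missing from it were left out. That gave 15818 genes tested. A region counted at a start when it overlapped the 1 kb on either side by at least 1 bp. Promoters covered 250 bases before and 50 after the start. For a gene with several promoters in the promoter table, that of the lowest coordinate was read for G+C and motifs. Members and lists were chosen with earlier results of these data known. Members with a region were all named with values; of the other lists, up to 4 with the best mean percentile of fold and up to 3 without a region. The region and pileup steps made 0 errors on 3000 and 20000 simulated cases. Scripts ran in Python 3.11.15 with pandas 2.3.3, numpy 2.4.6, scipy 1.17.1 and, for plots, matplotlib 3.10.9.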

Additional observations from a re-analysis of the deposited data

How the results depend on the processing

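The number of members with a start region in both lists was 29 with windows of 500 bp or 2 kb, with a −log10 q of at least 5, with overlap of at least 50% of each peak, with the summit in the window and with starts from the promoter table. It was 27 at a −log10 q of at least 10, which left out PCDHB7 and PCDHB15. It was 34 by R1 alone, 30 by R2 alone and 35 by either list. Keeping only peaks at or above the median fold of the list left 22, without PCDHA5, PCDHA12, PCDHB6, PCDHB7, PCDHB15, PCDHGA2 and PCDHGB2. The same limit left 3 alpha genes, a density of 1.32 shared regions per 100 kb in alpha, and 55.9% of all genes tested. Over the alternatives the share of all genes ran from 55.9% to 75.2%.

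No paired analysis was possible because both lists pool their libraries. For the same reason there is no spread between libraries and no test. Of 47 promoters, 6 shared 36-base words with another promoter, against 2389 of all 15812 promoters. Among the members the share reached 23.4% of the words in PCDHGB4 and PCDHGB5. The handling of reads with several matches is not stated, and its part in the results was not tested.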
